A study of Drosophila melanogaster with 18 samples.

Results

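The genes br, bun and cbt encode transcriptional regulators of the follicle cells that surround the Drosophila oocyte. They were followed here in egg chambers in which epidermal growth factor receptor (EGFR) or bone morphogenetic protein (BMP) signalling had been raised or lowered. Members were the probe sets that the platform's probe-to-gene table assigns to these 3 genes. They numbered 5 of the 13966 probe sets tested (3 of 10844 named genes), with 3 for br (141430_at, 143087_at and 144385_at), 1 for bun (152525_at) and 1 for cbt (145534_at). The rule itself takes gene names and no measured value, and the genes were picked with earlier results of these data known.

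EGFR and BMP signals act together on the follicular epithelium, EGFR from the dorsal side next to the oocyte nucleus and BMP from the anterior rim. Their overlap sets where the dorsal eggshell appendages form. br (broad) encodes BTB zinc finger proteins of the early ecdysone response and becomes patterned into a pair of dorsolateral patches whose cells form the roofs of the appendages. bun (bunched) encodes leucine zipper proteins of the TSC22 family, and its expression in the follicular epithelium is restricted by both pathways. cbt (cabut) encodes a C2H2 zinc finger factor related to mammalian TIEG (Klf10) proteins, known from embryonic dorsal closure and from the sugar response of larvae and adults.

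RNA came from ovarian egg chambers dissected by hand at stages 9 to 10. The females, in all groups, were 6 to 8 days old, kept at 23 °C and given yeast for 24 h, and each sample was hybridized to 1 Affymetrix array. The 18 samples formed 6 groups of 3. OreR flies served as wild type A (round 1 of hybridization) and wild type B (round 2). The perturbed groups all carried the driver CY2-GAL4, which acts in follicle cells, with UAS-lambda-Top (active EGFR, here EGFR gain), UAS-dnEGFR (dominant-negative EGFR, EGFR loss), UAS-tkv* (active Thickveins BMP receptor, BMP gain) or UAS-Dad (inhibitory Smad, BMP loss). BMP loss was run in round 2 and the other perturbations in round 1. Every sample pooled RNA from 100 egg chambers, and the germline cells of the chamber were part of it. Driver-only flies were not analysed here, so pathway, driver and strain cannot be told apart in a comparison with OreR. Separate collections of chambers from the same genotype served as replicates, so p-values measure the spread between collections, which may be technical.

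The deposited values are on the log2 scale. Array medians were 4.44 to 4.51 in round 1 and 4.02 to 4.04 in round 2, so comparisons with wild type were made within a round. Unless stated otherwise, values with ± are log2 differences with their SE, and called means an adjusted p under 0.05 in a limma fit over all probe sets. The number of arrays limits the precision. Egfr rose by 1.87 ± 0.16 in EGFR gain by 1 of its probe sets, tkv by 1.81 ± 0.18 in BMP gain by 1 of its probe sets, and Dad by 4.39 ± 0.66 in BMP loss, with adjusted p of 2.69e-05, 6.61e-05 and 0.0031 from limma. The other Egfr probe set stood at -0.12 in EGFR gain and the other tkv probe set at 0.16 in BMP gain. In each case the gene that rose is that of the driven construct, so these rises do not measure pathway activity. Where Dad was not driven it stood at 1.43 in BMP gain, 1.33 in EGFR gain and -1.17 in EGFR loss. None of these was called by limma (adjusted p = 0.442, 0.415 and 0.407). The Egfr probe sets stood at -0.32 and 0.03 in EGFR loss, without a call, and kek1, a target of the pathway, stood at -1.62 (adjusted p = 0.0994). The egg chamber label fits some of its listed markers. The follicle cell gene Vm26Aa stood near the top of the array in every group (lowest mean percentile 99.97, in EGFR gain and BMP gain). So did Yp1, Yp2 and Yp3 (lowest 99.37). The germline gene vas had mean percentiles of 94.2 to 95.9, and osk, bcd, orb and otu were also high (lowest 93.7). The follicle cell markers tj, slbo and upd1 were lower, with highest group means of 59.98 (BMP gain), 42.4 (BMP loss) and 16.7 (EGFR loss). The germline marker grk reached 58.8 (wild type B), and bam ranged from 55.95 (EGFR gain) to 91.97 (BMP gain). Array EGFR loss replicate 3 stood apart. Its actin control probe sets differed by 2.89 between the 3' and 5' ends, against 0.852 to 1.63 on every other array, and it had the lowest array weight (0.375).

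All 3 br probe sets had group means below the array medians. None of the 3 passed the threshold in any of the 12 comparisons (limma, adjusted p under 0.05, and 0 at an unadjusted p under 0.05). In EGFR gain, EGFR loss, BMP gain and BMP loss against wild type, 13.7%, 16.7%, 11.3% and 13.4% of all probe sets were under 0.05 unadjusted. Probe set 143087_at, the brightest, lay between percentiles 25.4 and 51.2 of its array. Probe set 144385_at lay between percentiles 3.62 and 36.2, and 141430_at between 0.637 and 33.7. Of 18 arrays, 15 held 141430_at below the array's 25th percentile and 7 held 144385_at there, while 143087_at was never there.

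**Figure D1:**
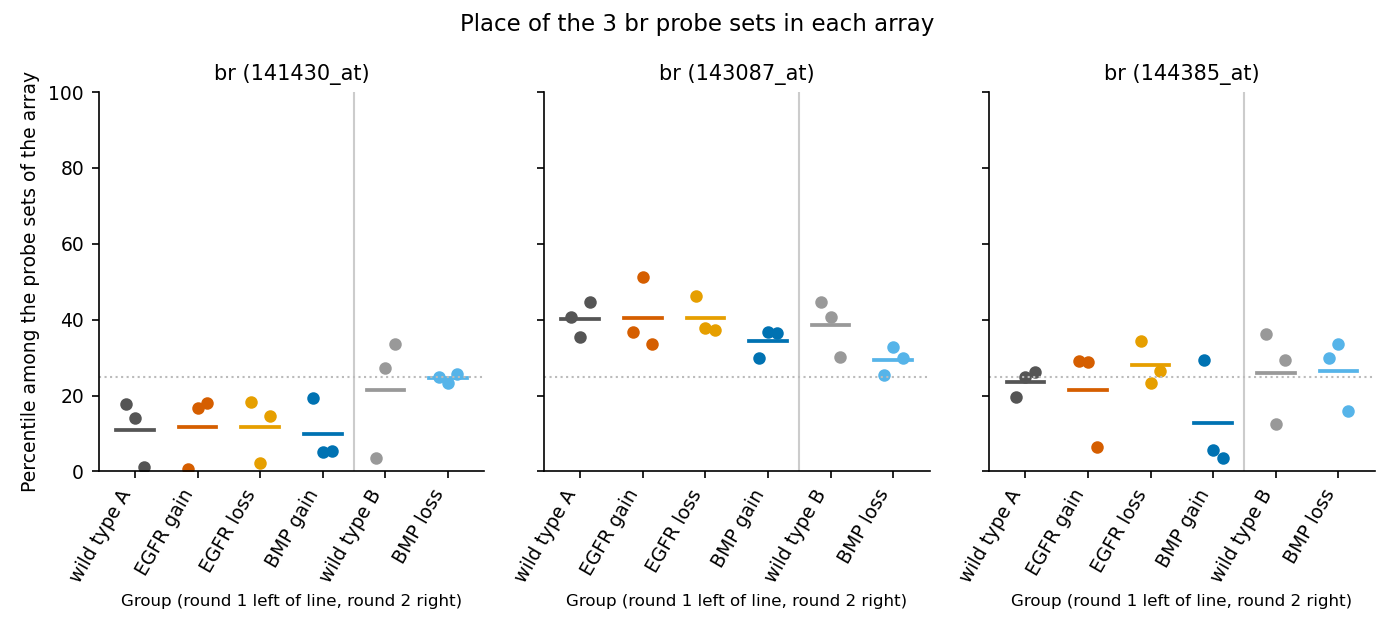
Percentile of each br probe set among all 13966 probe sets of the same array (y axis, percent), by group; points are arrays, bars are means of 3, the dotted line is the 25th percentile and the vertical line parts the 2 rounds. Probe set 143087_at stays between 25.4 and 51.2, while 141430_at lies below 25 on 15 of 18 arrays, and every perturbed group overlaps its wild type.

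By 143087_at, br read 3.56, 3.00 and 3.94 in replicates 1 to 3 of wild type A, a mean of 3.50 ± 0.47 (SD, n = 3). The arrays read 3.19, 4.62 and 2.79 in EGFR gain, 4.12, 3.29 and 3.14 in EGFR loss, and 2.45, 3.14 and 3.14 in BMP gain. In round 2 they read 3.52, 3.15 and 2.07 in wild type B and 1.59, 2.37 and 2.04 in BMP loss. The arrays of each perturbed group overlapped those of its wild type. The difference was lowest in BMP loss, at -0.91 with a 95% confidence interval of -1.95 to 0.13 (adjusted p = 0.458), followed by -0.59 (-1.63 to 0.45) in BMP gain. The BMP loss group held the lowest arrays of this probe set, yet its highest array exceeded the lowest of wild type B. In EGFR gain the difference was 0.04 (-1.01 to 1.08) and in EGFR loss 0.02 (-1.03 to 1.06). A change of br by 2-fold in either direction thus lay inside the interval in both EGFR comparisons.

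The other br probe sets were wider still. Probe set 141430_at read between -1.68 and 1.41 in the 12 arrays of round 1 and between -0.81 and 2.43 in the 6 of round 2, with the groups spread over much of that range except BMP loss (1.42 to 1.65). The log2 difference of 144385_at in BMP gain was -1.26, with an interval of -3.06 to 0.54 (adjusted p = 0.683). On that probe set BMP gain replicate 1 read 2.39 and replicates 2 and 3 read -0.11 and -0.54, so 1 group covered nearly the whole range of the probe set. The pooled SD between replicates was 1.30 for 141430_at, 1.08 for 144385_at and 0.62 for 143087_at, against a median of 0.29 over all probe sets and 0.77 over the probe sets of lowest mean (the dimmest 25%). Averaged over the 3 probe sets, br was not called either, at -0.07, 0.21, -0.60 and -0.15 in EGFR gain, EGFR loss, BMP gain and BMP loss (lowest adjusted p 0.719). Differences of br between groups were therefore not detectable at the precision of these arrays, which is not evidence that they are absent.

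bun was lower than wild type in egg chambers of every driver genotype, by about 1.4- to 1.7-fold, and passed the threshold in 3 of the 4 comparisons. In wild type A it read 7.16, 7.24 and 7.20 in replicates 1 to 3. In EGFR gain the values were 6.50, 6.75 and 6.58, in EGFR loss 6.44, 6.88 and 6.66, and in BMP gain 6.78, 6.75 and 6.59. All 9 driver arrays of round 1 lay below all 3 wild type A arrays, while the driver groups overlapped each other. In round 2 wild type B read 6.63, 6.64 and 6.31, and BMP loss 5.65, 5.83 and 5.89, again without overlap. Arrays entirely below wild type were found for 10.6% of probe sets in EGFR gain, 10.7% in EGFR loss, 10.3% in BMP gain and 10.6% in BMP loss. These shares cannot be multiplied, since the round 1 comparisons share the wild type A arrays. The share of probe sets low in all 4 comparisons at once was not counted.

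**Figure D2:**
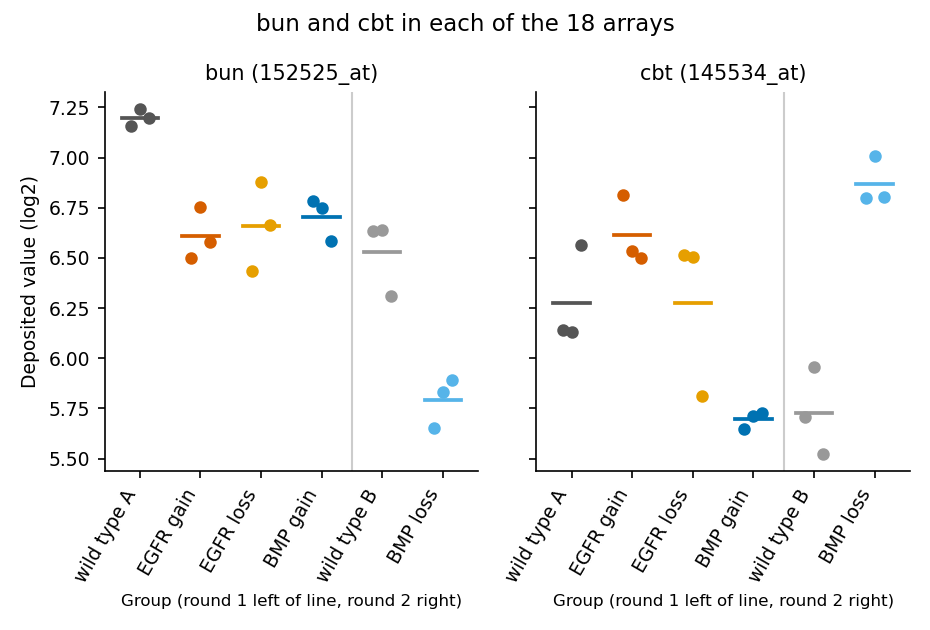
Deposited log2 value of bun (left) and cbt (right) in each array, by group; points are arrays, bars are means of 3 and the vertical line parts the 2 rounds. bun is below its wild type in all 4 perturbed groups, whereas cbt is below wild type in BMP gain (5.65 to 5.73) and above it in BMP loss (6.80 to 7.01).

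Against its own wild type bun fell by 0.74 ± 0.12 in BMP loss (1.67-fold, adjusted p = 0.00658), where limma called 2.29% of probe sets. bun and cbt were the 2 of 5 members called there, and bun alone in the EGFR comparisons. bun fell by 0.59 ± 0.12 in EGFR gain (1.50-fold, 0.022, background 2.81%) and by 0.54 ± 0.12 in EGFR loss (1.45-fold, 0.0339, background 3.17%). In BMP gain the log2 difference was -0.49 ± 0.12 (1.41-fold lower) and missed the threshold (0.0601, background 2.39%). Egg chambers with fewer cells that express a gene, and cells with less of its RNA, cannot be told apart in such pooled samples. The call in BMP loss held with each of the 6 arrays left out in turn (highest adjusted p 0.0365). The call in EGFR gain held with EGFR gain replicate 2 left out (0.0312) and ended without wild type A replicates 1, 2 or 3 (0.0541, 0.0852 and 0.075) or EGFR gain replicates 1 or 3 (0.0964 and 0.0673). That in EGFR loss held without EGFR loss replicate 2 (0.0206) and ended without wild type A replicates 1, 2 or 3 (0.0748, 0.112 and 0.106) or EGFR loss replicates 1 or 3 (0.0908 and 0.0724). In a fit to the 6 arrays of a comparison alone none of the 3 calls held, with adjusted p of 0.122 in EGFR gain, 0.29 in EGFR loss and 0.146 in BMP loss.

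The 4 comparisons each set a driver genotype against OreR, and 3 of them share the arrays of wild type A. Fitted as 1 contrast, the mean of the 4 driver groups against their own wild types was lower by 0.59 ± 0.08 on the log2 scale (interval -0.77 to -0.41, adjusted p = 0.000692), a contrast in which 4.85% of probe sets were called. Leaving out each of the 18 arrays in turn kept that call, up to an adjusted p of 0.00632, as did all 6 other settings tried. The contrast was fitted on the same arrays as the 4 comparisons, so it adds no independent evidence to them. br and cbt were not called in that contrast, cbt at 0.23 ± 0.12 (adjusted p = 0.394).

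Between the driver genotypes, bun differed little. EGFR gain and EGFR loss, which push 1 pathway in opposite directions, differed by -0.05 with an interval of -0.32 to 0.22 (adjusted p = 0.919, background 2.1%). EGFR gain and BMP gain differed by -0.10 (-0.36 to 0.17), and EGFR loss and BMP gain by -0.05 (-0.31 to 0.22, background 2%). A moderated F test over the 3 round 1 driver genotypes did not call bun (F = 0.29, adjusted p = 0.902), in a test that called 3.23% of probe sets. The difference of bun in BMP gain exceeded that in BMP loss by 0.24 (-0.14 to 0.62, adjusted p = 0.792). The interval bounds among the round 1 genotypes reach -0.36, so smaller differences were not resolved.

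**Figure D3:**
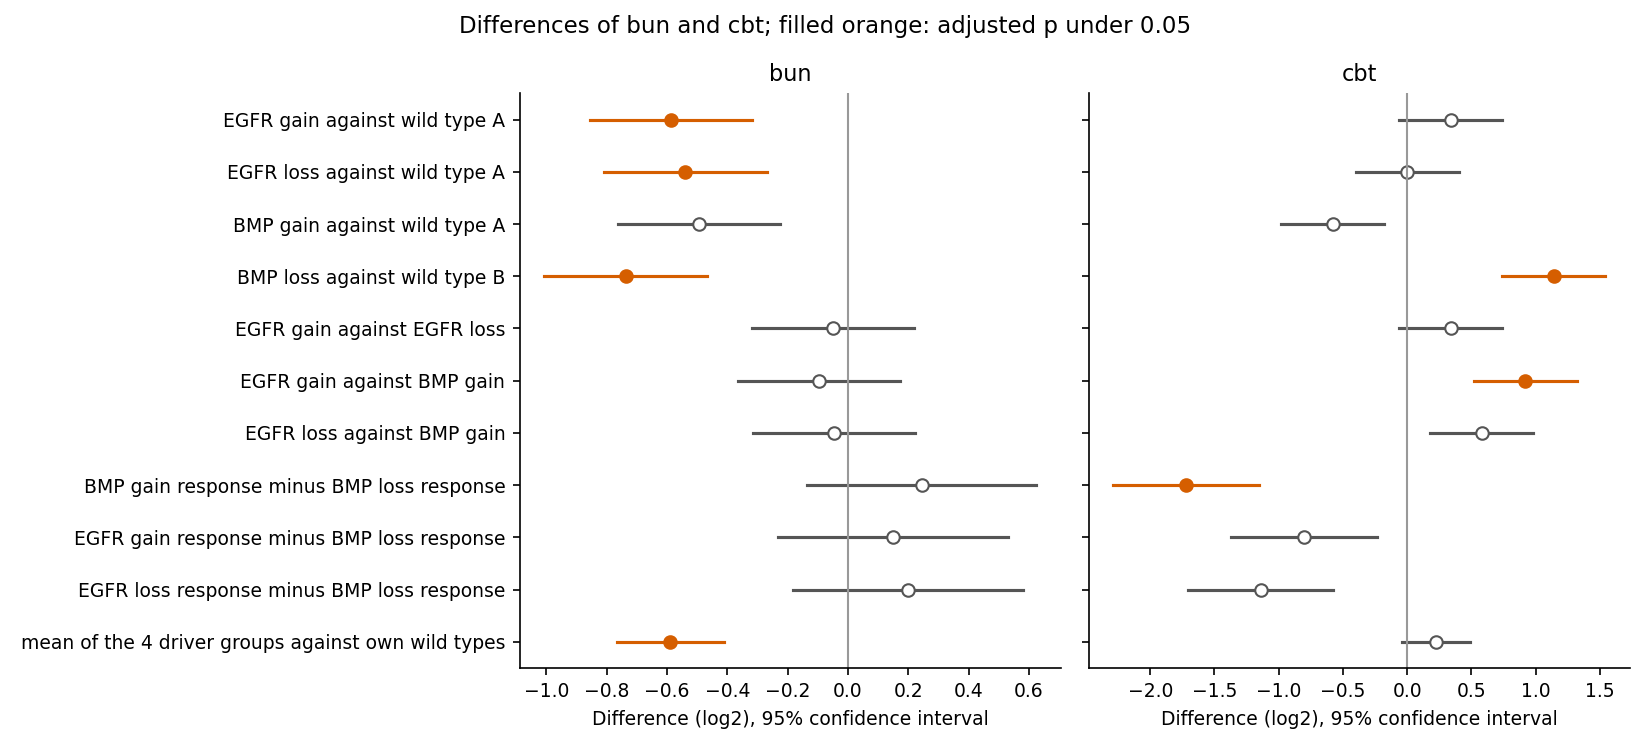
Log2 differences (x axis) of bun and cbt in 11 comparisons (y axis), with 95% confidence intervals from the limma fit; filled orange points passed an adjusted p of 0.05. For bun the intervals of all comparisons with wild type lie below 0 and those between perturbations include 0; for cbt the intervals lie on opposite sides of 0 in BMP gain and BMP loss.

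Other genes differed from wild type in the groups in which bun was low. The summed linear level of 7 chorion genes, which mark later stages of the eggshell, was 6153 to 10084 in wild type A. It was 4038 to 6734 in EGFR gain, 2752 to 6085 in EGFR loss and 2161 to 4443 in BMP gain, and in round 2 it was 4123 to 5576 in wild type B against 2697 to 3125 in BMP loss. Beside bun in EGFR gain, 3 of 8 early eggshell genes fell, Vm32E by 0.84, psd by 0.51 and Vm26Ac by 0.37, and of the chorion genes Cp15 fell by 1.53. Of these 4 calls only that of Vm32E held with each array left out in turn, and the highest adjusted p was 0.0509 for psd, 0.165 for Vm26Ac and 0.161 for Cp15. In EGFR loss 2 of 4 fat body markers (Lsp2, Obp99b) and 2 of 7 muscle markers (Mlc2, Prm) rose. The fat body sum was 107 to 192 there against 45.4 to 72.5 in wild type A, and the muscle sum 214 to 338 against 118 to 167, with no marker of either list below the 25th percentile on all EGFR loss arrays. Of these 4 calls that of Prm held with each array left out (0.0493), while those of Lsp2, Obp99b and Mlc2 ended (up to 0.165, 0.14 and 0.115). Of 4 measured hemocyte markers, srp fell by 1.56 in EGFR loss and fell by 1.32 in BMP gain, and the other 3, Hml, NimC1 and eater, were not called (1.03, 1.38 and 0.23 in EGFR loss). The median of the 4 was 0.63 in EGFR loss and 0.12 in BMP gain, and both srp calls ended with 1 array left out (up to 0.0512 and 0.14). The hemocyte sum was 11.3 to 16.3 in EGFR loss and 10.4 to 16.1 in BMP gain against 25.2 to 28.3 in wild type A. In BMP loss, where srp was not called, it was 10.5 to 14.3 against 19.9 to 30.6 in wild type B. This sum follows mainly srp, whose mean log2 value was 4.55 in wild type A, with Hml, NimC1 and eater at 0.68 or lower. In BMP gain no marker of either list was called or stood below the 25th percentile on all arrays. The muscle sum was 157 to 216 there and the fat body sum 60.9 to 99.7. In BMP loss no fat body or muscle marker was called. There, 3 of the 7 muscle markers and 1 of the 4 fat body markers stood below that percentile on all 3 arrays, against 2 and 1 in wild type B. The yolk protein genes Yp1, Yp2 and Yp3, made by follicle cells, fell by 0.52, 0.44 and 0.62 in EGFR loss, and Yp1 fell by 0.44 in BMP loss. Of 7 germline markers, bam fell by 0.81 in EGFR gain and osk fell by 0.55 in EGFR loss, and none was called in BMP loss. The calls of the Yp genes and bam held with each array left out, and that of osk ended (up to 0.0981). The median log2 difference of the chorion genes was positive in EGFR loss (0.25), where 2 of 7 fell (Cp7Fc, Cp38), and negative in the others. Both of those calls ended with 1 array left out (up to 0.165 and 0.133). The part of these genes in the bun result was not tested.

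The response of cbt differed between BMP gain and BMP loss and had opposite signs in them. In BMP loss cbt was 2.21-fold higher than in wild type B, and in BMP gain 1.50-fold lower than in wild type A. BMP loss read 6.80, 7.01 and 6.80 against 5.71, 5.96 and 5.52 in wild type B, with no overlap (10.4% of probe sets had all arrays higher). BMP gain read 5.65, 5.71 and 5.73 against 6.14, 6.13 and 6.56 in wild type A, also with no overlap (10.3% of probe sets had all arrays lower). The rise in BMP loss was 1.14 ± 0.19 (adjusted p = 0.0053, rank 83 of 13966 by p). The difference in BMP gain, at -0.58 ± 0.19 with an interval of -0.98 to -0.18, did not pass the threshold (adjusted p = 0.164). bun and cbt were the 2 of 5 members at an unadjusted p under 0.05 in BMP gain, as were 11.3% of all probe sets.

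The difference between the 2 BMP responses was tested directly. It rests on separate wild types, so no array enters both sides. BMP gain was run only in round 1 and BMP loss only in round 2. An effect of the round on the size of a response therefore cannot be told apart from the perturbation. cbt in BMP gain minus cbt in BMP loss, each against its own wild type, was -1.72 ± 0.26 (interval -2.29 to -1.16, adjusted p = 0.00734, rank 31 by p). Only 0.43% of probe sets were called in this contrast, 0.215% in the direction of cbt. Leaving out each of the 12 arrays in turn kept the call, up to an adjusted p of 0.0306, as did all 7 other settings tried. Probe sets with BMP gain arrays all below wild type A and BMP loss arrays all above wild type B made up 0.616% of the table. The rise in BMP loss also held with any single array left out (highest adjusted p 0.0265), but in a fit to the 6 arrays of the comparison alone it missed the threshold (0.0709).

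**Figure D4:**
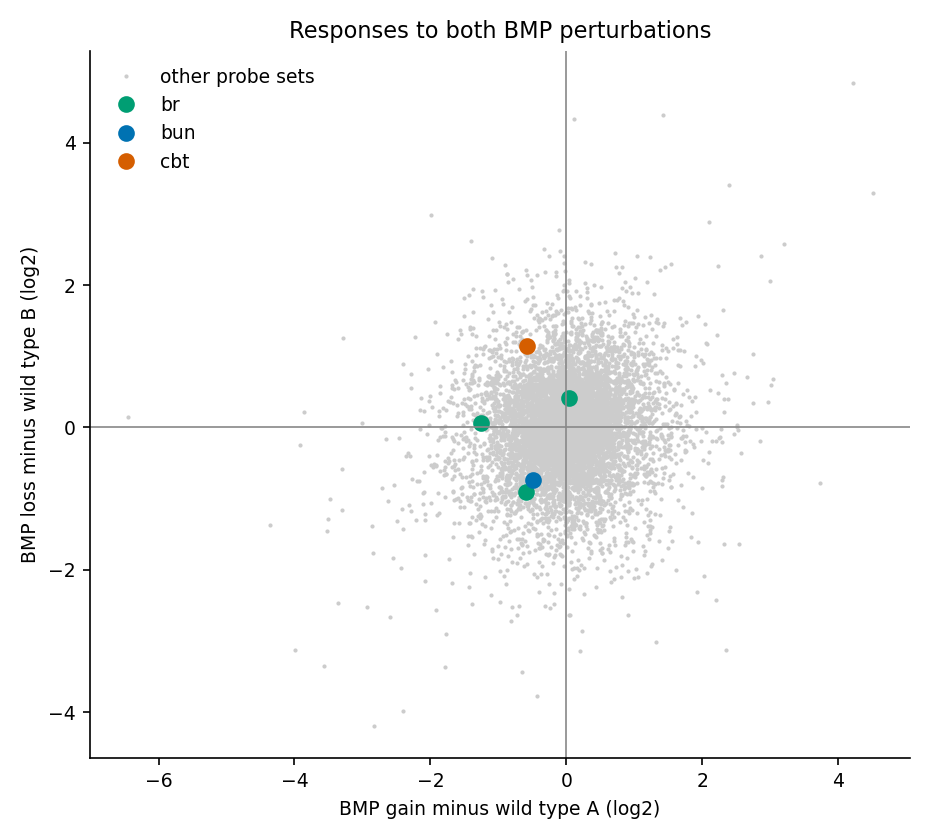
Log2 difference in BMP gain (x axis, against wild type A) and in BMP loss (y axis, against wild type B) for all 13966 probe sets (grey), with br, bun and cbt coloured. cbt lies at -0.58 and 1.14, in the quadrant lower in gain and higher in loss, and bun at -0.49 and -0.74, lower in both.

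The EGFR perturbations gave no call for cbt against wild type. EGFR gain read 6.81, 6.53 and 6.50, of which replicate 1 alone exceeded the highest wild type A array (6.56), and the log2 difference was 0.34 (-0.06 to 0.74, adjusted p = 0.473). EGFR loss read 6.51, 6.51 and 5.81, with a difference of 0.00 (-0.40 to 0.40, adjusted p = 0.999). The low value is that of EGFR loss replicate 3, the array that stood apart in its actin control. Without it the difference was 0.23 (adjusted p = 0.538). The responses of cbt in EGFR gain and EGFR loss minus that in BMP loss were -0.80 (adjusted p = 0.339, background 0.322%) and -1.14 (0.121, background 0.236%).

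Among the driver genotypes of round 1 cbt differed, by a moderated F test (F = 12.6, adjusted p = 0.0343). It was higher in EGFR gain than in BMP gain by 0.92 ± 0.19 (1.89-fold, adjusted p = 0.0275), a comparison that called 1.27% of probe sets and left 9.64% with all arrays higher. Both groups carry the same driver and were run in the same round. Any of the 6 arrays left out ended that call, with adjusted p of 0.123, 0.066 and 0.055 without EGFR gain replicates 1, 2 and 3 and of 0.101, 0.0878 and 0.0862 without BMP gain replicates 1, 2 and 3. EGFR loss was 0.58 ± 0.19 above BMP gain without overlap (adjusted p = 0.144, and 9.9% of probe sets had all arrays higher), and without EGFR loss replicate 3 the difference of 0.81 passed the threshold (0.0228). The F test ended without any 1 array of EGFR gain (0.0986, 0.0691 and 0.0582) or of BMP gain (0.109, 0.105 and 0.09) and held without any 1 array of EGFR loss (highest 0.0438). With the replicate number as a block it gave 0.0566.

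**Figure D5:**
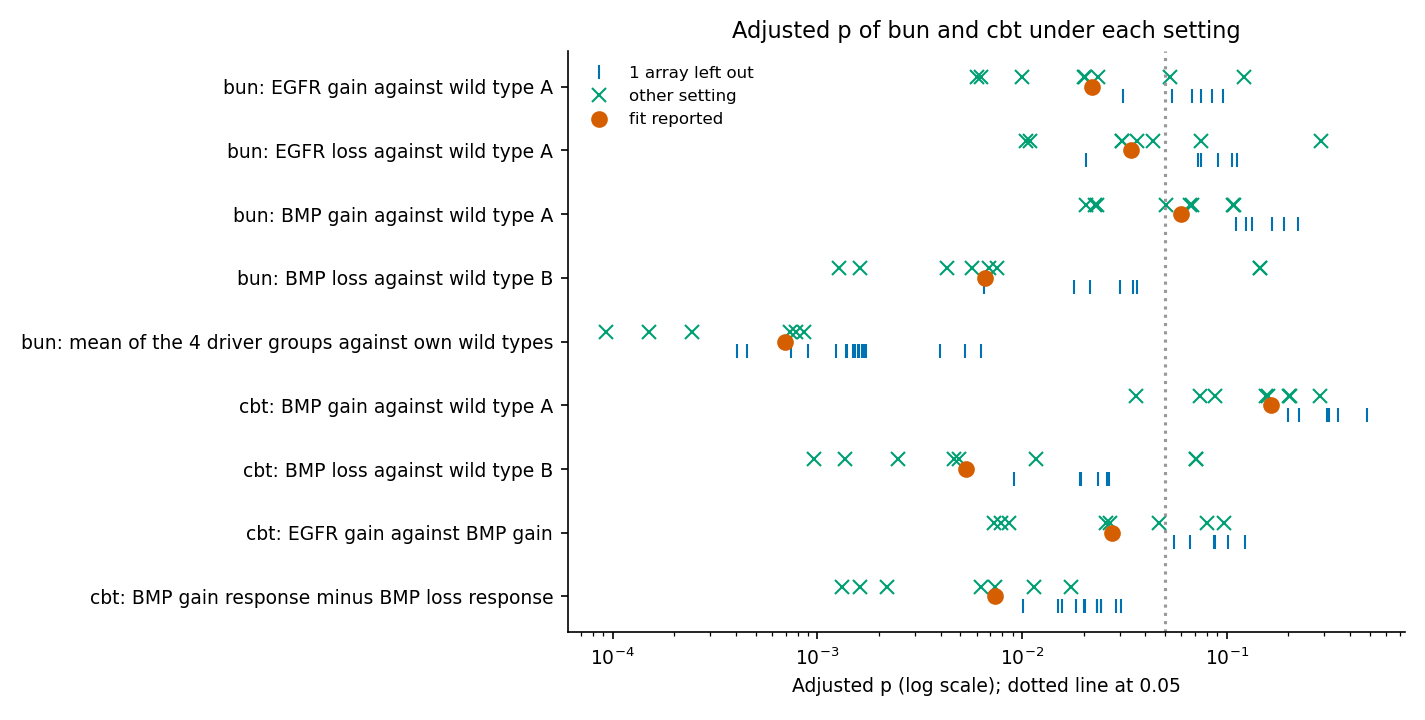
Adjusted p (x axis, log scale, dotted line at 0.05) of the main comparisons of bun and cbt (y axis) in the fit reported (orange), with 1 array left out (blue bars) and under other settings (green crosses). The mean of the driver groups for bun and the difference between BMP responses for cbt stay left of the line throughout, with highest values of 0.00632 and 0.0306.

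Placed on a common scale as the value minus the array median, bun stood highest in wild type A (2.71) and wild type B (2.50). BMP gain (2.22), EGFR loss (2.20) and EGFR gain (2.11) followed, and BMP loss was lowest (1.76). Neighbours among the 3 driver groups of round 1 did not differ beyond their spread. cbt stood highest in BMP loss (2.84), then in EGFR gain (2.11), EGFR loss (1.82), wild type A (1.78), wild type B (1.70) and BMP gain (1.21). EGFR gain, EGFR loss and wild type A overlapped one another. The order across rounds is a description, since array medians differed between the rounds.

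Genes most like each member were found by Pearson correlation over the 18 arrays, after the mean of the own wild type had been subtracted, among 6217 named probe sets at or above the median brightness. The arrays share drivers, rounds and wild types, so the coefficients are descriptions. For bun they were CG8891 (r = 0.92), escl (0.91), which encodes an Extra sexcombs-like Polycomb protein, and CG14073 (0.90). Each of them was lower in all 4 comparisons and called in each, which follows in part from their choice for likeness to bun on the same arrays and supports nothing further, with CG8891 at -0.97, -0.78, -1.03 and -1.13 in EGFR gain, EGFR loss, BMP gain and BMP loss. For cbt they were CG8303 (0.91), CG2767 (0.87) and colt (0.83), a mitochondrial carrier gene. CG8303 rose by 0.73 in BMP loss (adjusted p = 0.0118) and was not called in BMP gain (-0.14), while CG2767 and colt were called in none of the comparisons with wild type. The closest genes to br were Dys (0.73), Capr (0.71) and SerRS-m (0.69), none of them called against wild type. With rank correlation 1 of the 3 genes stayed for each member.

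Genes around the members' roles were read from lists, in the 4 comparisons with wild type. Of 9 measured ecdysone response genes, br not counted, limma called none in any of them. At an unadjusted p under 0.05 were 0, 1, 0 and 3 of the 9 in EGFR gain, EGFR loss, BMP gain and BMP loss. Of all probe sets, 13.7%, 16.7%, 11.3% and 13.4% were. The median log2 difference of the ecdysone response genes was -0.04, -0.05, -0.07 and -0.40, against 0.00 over all probe sets in each comparison. Of 9 other genes of the BTB zinc finger family of br, psq (pipsqueak) rose by 0.70 ± 0.11 in EGFR gain (adjusted p = 0.00406) and by 0.63 ± 0.11 in BMP gain (0.0073), and the other 8 were not called. psq stood at 0.43 in EGFR loss (0.0654) and 0.35 in BMP loss (0.155).

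Of 7 measured genes for Bunched partners and growth control, foxo, a growth-restraining transcription factor gene, fell by 0.93 ± 0.22 in EGFR loss (adjusted p = 0.0389, and up to 0.126 with 1 array left out, which ended the call), and no other call was made in the 4 comparisons. Madm, whose protein binds the long Bunched isoform, was named for that role, and its log2 differences were 0.12, -0.03, 0.25 and -0.16 in the same order (lowest adjusted p 0.394). Of 5 measured Sp and Klf zinc finger genes, the wider family of cbt, none was called in any of the 4, with 0, 1, 1 and 1 at an unadjusted p under 0.05. None of 9 genes of the JNK pathway, which acts with cbt in dorsal closure, was called (4, 3, 2 and 1 unadjusted), nor any of 6 sugar sensing genes (1, 2, 1 and 0 unadjusted). The unadjusted share over all probe sets was 13.7%, 16.7%, 11.3% and 13.4% in the same order. Of 11 follicle cell fate transcription factors, only mirr, a dorsal anterior homeobox gene, was called, and it fell by 2.74 ± 0.31 in EGFR loss (adjusted p = 0.000249), from a mean of 4.43 to 1.68.

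Of 7 measured EGFR response genes, kek1 and 18w rose in EGFR gain by 2.08 and 1.15, mirr and 18w fell in EGFR loss, and 18w rose by 1.14 in BMP gain. With 1 array left out the calls of kek1 in EGFR gain and 18w in EGFR loss ended (up to 0.166 and 0.0557), while the others held. Among 6 measured BMP response genes, bam, a germline differentiation factor gene, and magu (magu protein is secreted and modulates BMP signalling) rose in BMP gain by 2.05 ± 0.13 and 1.01 ± 0.17 (adjusted p = 1.7e-06 and 0.00531), and the other 4 were not called, with tkv read by its brighter probe set (0.16) and not by the one that rose above. By the brighter probe set tkv fell by 0.98 in EGFR loss (adjusted p = 9.56e-05), and bam, as given above, fell in EGFR gain. In BMP loss the driven gene Dad rose and 5 of 6 were not called. In BMP gain, where cbt was low, 2 of 8 early eggshell genes (Vm32E, Vm26Ac) and 3 of 7 chorion genes (Cp38, Cp7Fc, Cp36) fell, and Yp3 rose by 0.65. The calls of Cp7Fc and Cp36 ended with 1 array left out (up to 0.154 and 0.18). In BMP loss, where cbt rose, yellow-g and yellow-g2 fell by 1.66 and 2.10 and the chorion sum was lower too. Both calls ended with 1 array left out (up to 0.122 and 0.0793) and on the 6 arrays of the comparison alone (0.178 and 0.0886). In wild type A yellow-g and yellow-g2 had means of 7.28 and 7.67. They read lower, without a call, in BMP gain (5.83 and 6.48) and EGFR loss (6.50 and 6.55), and 7.71 and 7.56 in EGFR gain. The part of these genes in the cbt result was not tested.

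In the RefSeq annotation of Release 6, br lies on the X chromosome and bun and cbt on the left arm of chromosome 2 (2L). The annotation lists 16 transcripts for br, 10 for bun and 3 for cbt, and the isoforms that each probe set detects are not stated in the labels or tables. br lies within the span of the mucin gene Mur2B, and cbt within that of ush, which encodes a zinc finger cofactor of GATA factors. Mur2B fell by 4.37 in BMP gain (adjusted p = 0.00186), and the br probe sets were not called there. inc, the nearest measured gene before br, rose by 0.55 in EGFR gain and 0.45 in EGFR loss (adjusted p = 0.00867 and 0.029). ush stood at -0.09 in BMP gain and 0.20 in BMP loss (adjusted p = 0.961 and 0.798), so its probe set did not show the pattern of cbt. The nearest measured genes beside cbt, MED15 and Spp, were not called in either BMP comparison (0.12 and 0.00 in BMP gain, 0.07 and 0.19 in BMP loss). Of the measured neighbours of bun, CG5418, Oatp33Eb, nub and Ref2, none was called in any of the 4 comparisons (lowest adjusted p 0.0945). These neighbours were picked by position after the members' values had been seen.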

How the data were processed

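Values were the authors' deposited table of log2 values, 1 column per array for 14010 probe sets. Per the submitters' processing notes the affy package was used, with no version. Background correction and summary are not stated in them. Base 2 was taken from the highest value, 13.3. Array medians differ by 0.45 between rounds, so normalization appears to have been done within rounds. No further normalization was applied, and the table holds no detection calls.

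After 44 control probe sets were left out, 12443 of 13966 had 1 gene, 327 several and 1196 none, with symbols updated through the RefSeq table of Release 6. limma 3.58.1 in R 4.3.3 fitted 6 group means over all 18 arrays (12 residual and 1.31 prior degrees of freedom), with Benjamini-Hochberg adjustment over all probe sets. Comparisons numbered 12, as 11 contrasts and an F test over 3 groups. The fit was tested on simulated data with planted changes larger than any difference of bun from wild type. That test does not cover changes of the size seen for bun. For a listed gene with several probe sets the brightest was used. Sums are of 2 to the power of the log2 values.

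Named were all member probe sets, the called genes of fixed lists (at most 4 a list and comparison), the 3 genes most like each member, and genes that check the labels. Members and lists were chosen with earlier results of these data known. Alternatives were other sets of arrays, moderation, weights, a filter on dim probe sets, other normalization, a replicate block and leaving out arrays. No sequence of these genes was in the sources used here.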

Additional observations from a re-analysis of the deposited data

Results flagged for a closer look

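cbt responded differently to the 2 BMP perturbations, each against its own wild type, with a difference of -1.72 ± 0.26 on the log2 scale (limma, adjusted p = 0.00734). The 2 perturbations were run in separate rounds. All 3 BMP gain arrays were below wild type A and all 3 BMP loss arrays above wild type B, as for 0.616% of all probe sets. cbt also differed between the effects of EGFR gain and BMP gain, by 0.92 ± 0.19 (adjusted p = 0.0275). The 3 arrays of each did not overlap, and 9.64% of all probe sets had all EGFR gain arrays higher. The call between EGFR gain and BMP gain ended with any 1 of the 6 arrays left out (adjusted p = 0.055 to 0.123).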

How the results depend on the processing

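Fitted to the arrays of a comparison alone, bun stood at -0.59, -0.54 and -0.74 in EGFR gain, EGFR loss and BMP loss (adjusted p = 0.122, 0.29 and 0.146), and cbt at 1.14 in BMP loss (0.0709) and 0.92 between EGFR gain and BMP gain (0.0802), with F = 10.7 over the 3 driver genotypes (0.196), all past the threshold no longer. Fitted to a round alone these were -0.59 (0.0529), -0.54 (0.075), -0.74 (0.146), 1.14 (0.0709), 0.92 (0.0974) and F = 10.7 (0.115). bun in BMP gain passed the threshold with an intensity trend (-0.49, 0.0226), array weights (-0.48, 0.0233) and the dim filter (-0.49, 0.0205). cbt passed it in BMP gain with array weights (-0.61, 0.0361), and in the EGFR loss response minus the BMP loss response with the trend (-1.14, 0.0493) and the dim filter (-1.14, 0.0464).

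Numbers of called probe sets in EGFR gain, EGFR loss, BMP gain and BMP loss (392, 443, 334 and 320) became 62, 28, 95 and 55 in fits to the comparison alone, 215, 227, 232 and 55 to the round alone, and 625, 780, 508 and 549 with the dim filter, which 7715 probe sets passed, bun and cbt among them and br not. The trend gave 725 in EGFR loss and 488 in BMP loss, and array weights 578 in BMP gain. With 1 array left out they were 219 to 318, 233 to 438, 210 to 256 and 183 to 263. Quantile normalization and median centring changed no call of a member.

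With 1 array left out bun ranged from -0.66 to -0.53 in EGFR gain and -0.65 to -0.43 in EGFR loss. cbt ranged from 0.82 to 0.98 between EGFR gain and BMP gain and 0.46 to 0.81 between EGFR loss and BMP gain, with F from 8.65 to 25.2. Replicate numbers did not pair the samples, since deviations of same-numbered arrays correlated at -0.02 to 0.02. The replicate block left every other member's call as it was, and took cbt's F test to 12.0 (0.0566) and the counts to 347, 357, 305 and 258. Of 38 calls of listed genes 20 held with any 1 array left out. The 3 genes most like br all changed when the search was not limited to probe sets at or above the median brightness. Signal over background could not be judged without detection calls.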
